A study of Mus musculus with 23 samples.

Results

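The genes described here are 34 genes of T cells and of the intraepithelial lymphocytes of the gut. They were named in a list by function and found in the count table by Ensembl identifier. The list was chosen with earlier results of these data known, so it was not blind to them. All 34 had a row among the 55416 gene rows, and all 34 passed the filter on low counts that left 13405 genes for testing. They comprise 8 receptor chain genes, 3 coreceptors, 3 signalling genes, 5 surface receptors, 7 cytotoxic genes, 4 homing genes and 4 genes shared with other leukocytes. RNA was sequenced in bulk from proximal small intestinal scrapings, 1 library per mouse, and the animals were C57BL/6JRccHsd, all labelled as females. From day 21 of age the mice ate a test diet for 3 weeks, and tissue was taken on day 42. The GAL42 diet gave 16% of energy as galactose and 16% as glucose (n = 12 mice). The GLU42 diet gave 32% of energy as glucose and no galactose (n = 11 mice). The comparison asks how these genes differ when galactose replaces part of the glucose after weaning.

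Intraepithelial lymphocytes are T cells that live between the epithelial cells of the gut. Many carry CD8 as a pair of alpha chains, many use a gamma delta receptor in place of the alpha beta receptor, and they hold granzymes in their granules. The integrin made of the alpha E chain (Itgae) and the beta 7 chain (Itgb7) binds E-cadherin on epithelial cells and holds them there. CCR9 on lymphocytes answers to CCL25, which the small intestinal epithelium makes. CD4 T cells lie mostly in the lamina propria beneath.

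Libraries held 15382583 to 17080390 counts in genes in GAL42 mice and 15465647 to 17174721 in GLU42 mice. Epithelial markers were abundant and similar between the diets, at a summed 14667 ± 1086 counts-per-million (CPM, scaled by TMM) in GAL42 mice and 14704 ± 1563 in GLU42 mice (SD), and neutrophil S100a8 had no count in any library. GAL42 replicate 12 went against its label of female, with 225 counts on Y-linked genes and 4 of Xist, where no other library had more than 1 Y-linked count. The 34 members together made up 510 ± 154 CPM in GAL42 mice (lowest 348, median 468, highest 831) and 378 ± 122 in GLU42 mice (lowest 174, median 388, highest 636).

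No member passed the test between the diets. By edgeR's quasi-likelihood test, with p-values adjusted over all 13405 genes, 0 of 34 members and 0 of all genes were called (percent called 0). DESeq2 called 132 of the 7168 genes to which it gave an adjusted p, and 1 of those called was a member. Many members, among them Itgb7, Trbc2 and Lck, got no adjusted p from DESeq2 and so could not be called by it. The edgeR estimate was nevertheless above 0, meaning a higher level in GAL42 mice, for 33 of 34 members, with Cd4 the exception. The median log2 difference, GAL42 minus GLU42, was 0.39 over the members and -0.0017 over all genes tested, of which 49.5% lay above 0. At an unadjusted p under 0.05, 14 members lay higher and 0 lower, where 8.63% of all genes lay higher and 5.72% lower. In bulk tissue a smaller number of cells of a type and less RNA per cell cannot be told apart, and these genes share the same cells and libraries, so the 34 estimates are not independent. Both groups overlapped for every member, and how many of all tested genes overlapped was not counted.

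The direction of most estimates changed in the fit with surrogate variables and in no other. In every other fit, all members tested but Cd4 had an estimate above 0. With 6 surrogate variables, which are patterns across libraries estimated from all tested genes, members included, 10 of 34 estimates lay above 0. Among them was Cd4, which lay below 0 without these variables, and the member median was -0.08. Over all genes the median was then 0.0038, and 51.4% lay above 0. At an unadjusted p under 0.05 by edgeR, 1 member lay higher and 3 lower, beside 464 and 436 of all 13405 genes. With the slope of expression on transcript length in each library as a covariate, the member median was 0.36. At an unadjusted p under 0.05 by edgeR, 7 members then lay higher. So did 510 of all 13405 genes, against 1157 without the covariate. The number of members at that p was 10 without GAL42 replicate 8 and 25 without GLU42 replicate 2, with medians of 0.31 and 0.52. Over all genes, 1008 of 13355 and 1045 of 13474 lay higher in these 2 fits. Without GAL42 replicate 12, whose label is in doubt, 15 members lay higher at that p, the median was 0.43, and 0 were called by edgeR. Of all 13332 genes in that fit, 1127 lay higher at that p.

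**Figure D1:**
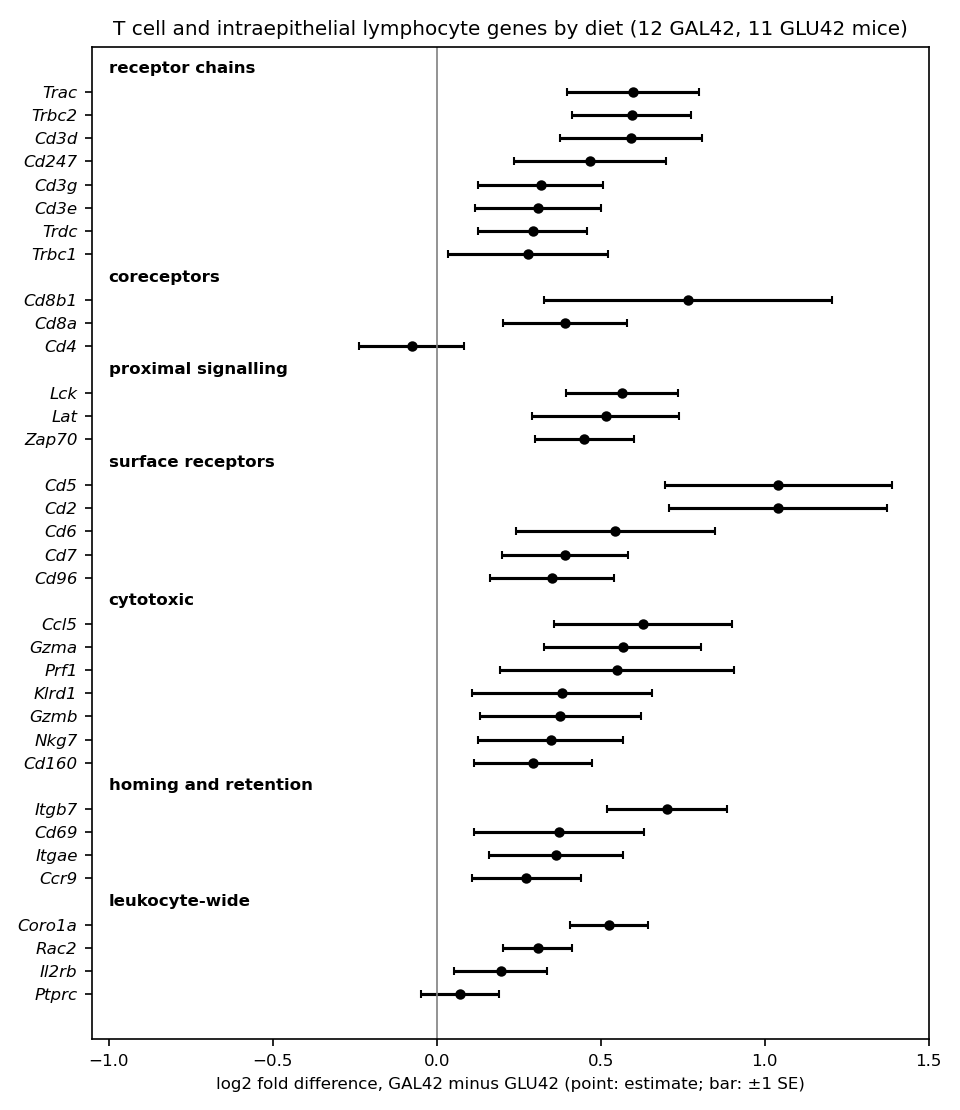
Log2 fold difference (horizontal axis, GAL42 minus GLU42, points with bars of 1 SE, 12 and 11 mice) for each of the 34 genes, grouped by function. Every point but that of Cd4 lies right of 0, and Cd2 and Cd5 lie farthest right at 1.04 with wide bars.

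The receptor chains include the CD3 chains that carry the signal and the constant parts of the antigen-binding chains. All 8 estimates lay above 0 (median log2 difference 0.39) and 3 had an unadjusted p under 0.05. Summed, the 8 genes gave 54.7 ± 14.1 CPM in GAL42 mice and 41.0 ± 13.7 in GLU42 mice.

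Trbc2, a constant region of the receptor beta chain, ran from 4.47 to 10.8 CPM in GAL42 mice (median 7.96), against 1.80 to 7.28 in GLU42 mice (median 5.08). In 7 of 12 GAL42 mice it exceeded every GLU42 mouse. The log2 difference was 0.60 ± 0.18 (SE), with p = 0.00283 before and 0.162 after adjustment by edgeR.

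Trac, the constant region of the alpha chain, ran from 5.60 to 18.0 CPM in GAL42 mice (median 10.7), against 2.98 to 11.4 in GLU42 mice (median 6.57). Of the GAL42 mice, 10 of 12 lay above the GLU42 median. Its log2 difference was 0.60 ± 0.20 (p = 0.00591, adjusted p = 0.196 by edgeR).

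Cd3d, the delta chain of CD3, ran from 1.67 to 4.40 CPM in GAL42 mice (median 2.96), against 0.994 to 3.73 in GLU42 mice (median 1.95). Only 3 GAL42 mice lay above the highest GLU42 mouse. Its log2 difference was 0.59 ± 0.22 (p = 0.0111, adjusted p = 0.217 by edgeR).

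The other chains had smaller estimates. Cd3e, whose product pairs with the other CD3 chains, averaged 8.73 ± 2.93 CPM in GAL42 mice and 7.05 ± 2.35 in GLU42 mice (log2 difference 0.31 ± 0.19). Cd3g, the gamma chain of CD3, averaged 12.1 ± 3.93 CPM in GAL42 mice and 9.70 ± 3.48 in GLU42 mice (0.32 ± 0.19). Cd247, the zeta chain, averaged 1.90 ± 0.70 CPM in GAL42 mice and 1.37 ± 0.648 in GLU42 mice (0.47 ± 0.23). None of these passed the test.

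The gamma delta receptor is represented by Trdc, the delta constant region. Trdc ran from 4.69 to 11.8 CPM in GAL42 mice (median 7.89), against 3.73 to 9.91 in GLU42 mice (median 6.92). The groups overlapped over most of their range, with a log2 difference of 0.29 ± 0.17 (adjusted p = 0.422 by edgeR). The ratio of Trdc to Trac within a library asks whether the delta and alpha chains differed unequally. Its log2 value was -0.37 ± 0.51 in GAL42 mice and -0.04 ± 0.44 in GLU42 mice, a difference of -0.33 with a 95% interval from -0.74 to 0.09. The permutation test gave an adjusted p of 0.194 over 5 ratios, so neither chain was shown to differ more.

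Trbc1, the other beta constant region, averaged 2.98 ± 0.809 CPM in GAL42 mice and 2.46 ± 1.39 in GLU42 mice (log2 difference 0.28 ± 0.24). The counts of Trbc1 and Trbc2, and the split between them, are uncertain because their coding parts are nearly the same sequence. How reads that match both were counted is not known here. Both genes lie side by side on chromosome 6 in GRCm38, Trbc1 at chr6:41538218-41539881 and Trbc2 at chr6:41546730-41548352, both on the plus strand. Of 521 coding bases compared, 23 differed (95.6% identity), and the first 259 were identical, so a read within them cannot be assigned to either gene. Bases 241 to 460 of the coding sequence (GENCODE transcripts) are shown because they hold the first 12 differing bases, in capitals.
Trbc1: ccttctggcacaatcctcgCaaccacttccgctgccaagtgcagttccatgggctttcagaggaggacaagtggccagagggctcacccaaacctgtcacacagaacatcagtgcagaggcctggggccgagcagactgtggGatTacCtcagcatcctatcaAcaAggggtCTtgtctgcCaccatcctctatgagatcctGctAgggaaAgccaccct
Trbc2: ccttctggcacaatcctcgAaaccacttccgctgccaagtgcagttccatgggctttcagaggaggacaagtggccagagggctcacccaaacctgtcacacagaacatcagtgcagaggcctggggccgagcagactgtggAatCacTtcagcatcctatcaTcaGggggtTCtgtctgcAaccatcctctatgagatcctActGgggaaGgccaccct

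The variable segments of the receptor genes, which are not members, were too thinly covered to compare the diets closely. Delta segments had 1 to 16 counts per library, alpha segments 5 to 58, beta segments 4 to 41 and gamma segments 14 to 113. Gamma segments summed to 3.78 ± 1.44 CPM in GAL42 mice and 3.10 ± 1.40 in GLU42 mice, and Trgv2 and Tcrg-V7 held 39.2% and 36.01% of their counts. All 4 families had an adjusted p of 0.299 in permutation tests, with log2 differences of 0.33 to 0.50 at a pseudocount of 0.1 CPM. With a pseudocount of 1 the differences were 0.10 for delta, 0.20 for alpha, 0.25 for gamma and 0.27 for beta segments. Single mice moved them too, to 0.17 for alpha segments without GAL42 replicate 2, 0.19 for gamma segments without GLU42 replicate 11 and 0.22 for delta segments without GAL42 replicate 9.

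Among the coreceptors, the CD8 chains had estimates above 0 and Cd4 had the only estimate below 0 of the 34. Cd8a, the chain that natural intraepithelial lymphocytes use as a pair, ran from 11.6 to 29.9 CPM in GAL42 mice (median 16.8), against 6.21 to 29.5 in GLU42 mice (median 12.96). The top of both groups was alike, and 11 of 12 GAL42 mice lay above the GLU42 median. Its log2 difference was 0.39 ± 0.19 (p = 0.048, adjusted p = 0.344 by edgeR).

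Cd8b1, the beta chain found on conventional CD8 T cells, was the most variable member. It ran from 0.579 to 8.74 CPM in GAL42 mice (median 2.12), against 0.249 to 7.09 in GLU42 mice (median 1.36), a span of 15.1-fold within GAL42 and 28.5-fold within GLU42. A few mice in each group carried most of it. The log2 difference was 0.77 ± 0.44 (adjusted p = 0.427 by edgeR). It was 1.24 without GLU42 replicate 2 and 0.52 without GAL42 replicate 2. The ratio of Cd8a to Cd8b1 differed by -0.33 on the log2 scale (95% interval -0.95 to 0.28, permutation test, adjusted p = 0.346).

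Cd4, the coreceptor of helper T cells, ran from 3.83 to 13.4 CPM in GAL42 mice (median 8.10), against 5.16 to 12.4 in GLU42 mice (median 9.39). The GAL42 range enclosed the GLU42 range. The log2 difference was -0.08 ± 0.16 (adjusted p = 0.859 by edgeR). The log2 ratio of Cd4 to Cd8a was -1.02 ± 0.76 in GAL42 mice and -0.46 ± 0.79 in GLU42 mice. Its difference of -0.56 had a 95% interval from -1.24 to 0.11 (permutation test, adjusted p = 0.194). Without GLU42 replicate 2 that difference was -0.77 with an adjusted p of 0.0491 by the permutation test.

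**Figure D2:**
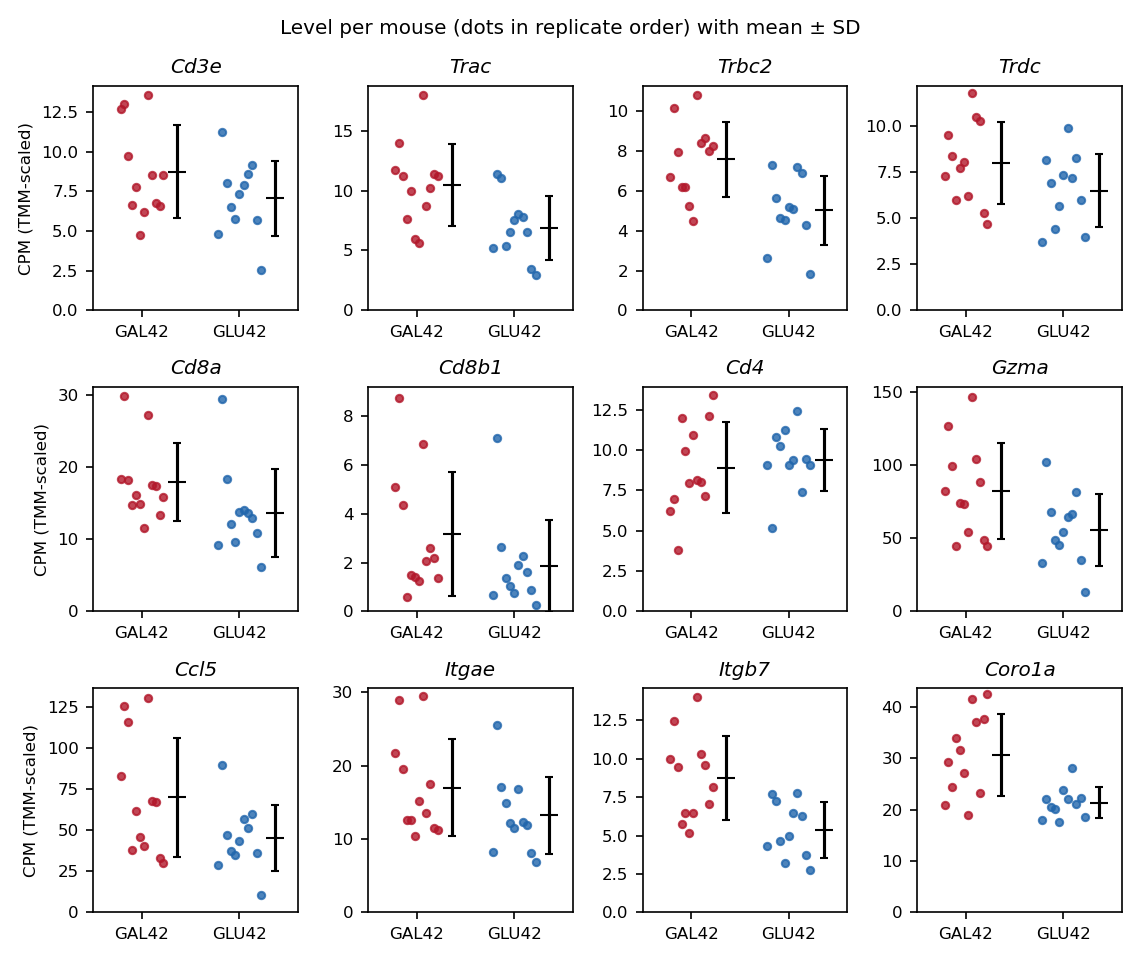
Level per mouse in TMM-scaled CPM (vertical axis, from 0) of 12 members, GAL42 left and GLU42 right, each dot 1 mouse in replicate order, with mean and SD (n = 12 and 11). The groups overlap for every gene shown. The GAL42 mean is the higher in each panel but that of Cd4.

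The signalling genes act directly behind the receptor, and all 3 had an unadjusted p under 0.05. Lck, the kinase that phosphorylates CD3, ran from 7.15 to 15.8 CPM in GAL42 mice (median 9.84), against 2.61 to 13.7 in GLU42 mice (median 7.32). In 11 of 12 GAL42 mice it lay above the GLU42 median. Its log2 difference was 0.56 ± 0.17 (p = 0.00272, adjusted p = 0.162 by edgeR).

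Zap70, the kinase that binds the phosphorylated chains, ran from 3.27 to 8.15 CPM in GAL42 mice (median 4.48), against 2.30 to 4.89 in GLU42 mice (median 3.68). Here too 11 of 12 GAL42 mice lay above the GLU42 median, with a log2 difference of 0.45 ± 0.15 (p = 0.00608, adjusted p = 0.198 by edgeR). Lat, the scaffold that ZAP70 phosphorylates, averaged 4.69 ± 1.62 CPM in GAL42 mice and 3.28 ± 1.45 in GLU42 mice (0.52 ± 0.22, adjusted p = 0.296 by edgeR).

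The surface receptors had a median log2 difference of 0.55, with 5 of 5 estimates above 0 and 2 at an unadjusted p under 0.05. Those were the largest estimates of all members, on low counts. Cd2, an adhesion receptor, ran from 0.298 to 2.33 CPM in GAL42 mice (median 1.10), against 0.232 to 1.31 in GLU42 mice (median 0.646). Its log2 difference was 1.04 ± 0.33 (p = 0.00415, adjusted p = 0.176 by edgeR), on 4 to 38 counts per library.

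Cd5, which dampens receptor signalling, ran from 0.366 to 3.43 CPM in GAL42 mice (median 1.57), against 0.186 to 1.84 in GLU42 mice (median 0.714). It differed by 1.04 ± 0.35 on the log2 scale (p = 0.00565, adjusted p = 0.192 by edgeR), on 3 to 53 counts. The highest GAL42 mice for both genes lay above all GLU42 mice, 5 of 12 for Cd2 and 4 of 12 for Cd5. Both proteins are also known on some B cells in mice, as background. Cd7, an immunoglobulin-like receptor, averaged 45.6 ± 17.5 CPM in GAL42 mice and 34.7 ± 11.9 in GLU42 mice (0.39 ± 0.19). Cd6, a relative of Cd5, averaged 2.60 ± 1.35 CPM in GAL42 mice and 1.78 ± 1.04 in GLU42 mice (0.55 ± 0.30). Cd96, a receptor of the nectin-binding family, averaged 4.78 ± 1.68 CPM in GAL42 mice and 3.75 ± 1.36 in GLU42 mice (0.35 ± 0.19). None of these last 3 reached an unadjusted p of 0.05.

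The cytotoxic genes summed to 216 ± 93.2 CPM in GAL42 mice and 150 ± 64.8 in GLU42 mice. All 7 estimates lay above 0 (median log2 difference 0.38) and 2 had an unadjusted p under 0.05. Per kilobase of transcript, the highest member levels were those of Ccl5 (105 CPM per kilobase in GAL42 mice and 67.7 in GLU42 mice) and Gzma (82.8 in GAL42 mice and 55.9 in GLU42 mice), while Cd69 was lowest at 0.184 in GAL42 mice and 0.142 in GLU42 mice.

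Gzma, a granule protease, ran from 44.5 to 147 CPM in GAL42 mice (median 78.5), against 13.5 to 102 in GLU42 mice (median 54.0). The GLU42 group reached lower and 3 GAL42 mice lay above it. The log2 difference was 0.57 ± 0.24 (p = 0.0261, adjusted p = 0.283 by edgeR). Ccl5, a chemokine stored by cytotoxic lymphocytes, ran from 30.2 to 131 CPM in GAL42 mice (median 64.5), against 10.7 to 89.9 in GLU42 mice (median 43.7). It differed by 0.63 ± 0.27 on the log2 scale (p = 0.0279, adjusted p = 0.289 by edgeR).

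The remaining cytotoxic members did not reach an unadjusted p of 0.05. Gzmb, a second granule protease, averaged 46.0 ± 20.5 CPM in GAL42 mice and 35.4 ± 16.2 in GLU42 mice (log2 difference 0.38 ± 0.24). Prf1, which forms the pore through which granzymes enter target cells, averaged 1.02 ± 0.571 CPM in GAL42 mice and 0.694 ± 0.537 in GLU42 mice (0.55 ± 0.36). Nkg7, a granule membrane protein, averaged 9.41 ± 3.93 CPM in GAL42 mice and 7.39 ± 2.83 in GLU42 mice (0.35 ± 0.22). For all 3 the mean difference was smaller than the SD within GAL42. Klrd1, the CD94 receptor chain, averaged 2.57 ± 1.26 CPM in GAL42 mice and 1.97 ± 1.02 in GLU42 mice (0.38 ± 0.27). Cd160, a receptor of intraepithelial lymphocytes, averaged 4.33 ± 1.26 CPM in GAL42 mice and 3.53 ± 1.26 in GLU42 mice (0.29 ± 0.18).

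Gzma set against Cd3e within each library asks whether the granule gene differed beyond that single T cell gene. The log2 ratio was 3.19 ± 0.45 in GAL42 mice and 2.88 ± 0.24 in GLU42 mice. The difference of 0.30 had a 95% interval from -0.01 to 0.61 (permutation test, p = 0.0624, adjusted p = 0.194), so it did not pass. Cd3e had a log2 difference of 0.31, in a range over the receptor chains from 0.28 to 0.60. Gzma was not set against the other chains.

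Of the homing genes, Itgb7 had the smallest p, and all 4 estimates lay above 0. Itgb7 pairs with the alpha E chain for E-cadherin and with the alpha 4 chain for the gut vessel ligand MAdCAM-1. It ran from 5.19 to 14.03 CPM in GAL42 mice (median 8.81), against 2.73 to 7.77 in GLU42 mice (median 4.99). Every GAL42 mouse lay above the GLU42 median, which held for no other member, and 7 of 12 lay above the highest GLU42 mouse. The log2 difference was 0.70 ± 0.18 (p = 0.000718, adjusted p = 0.138 by edgeR). Without GAL42 replicate 7 the adjusted p was 0.0436, with a log2 difference of 0.74, and 219 genes were called in all. With surrogate variables its log2 difference was 0.14 (adjusted p = 0.928 by edgeR), and over all alternatives its adjusted p ranged from 0.0414 to 0.928.

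Itgae, the partner chain for E-cadherin, ran from 10.4 to 29.5 CPM in GAL42 mice (median 14.4), against 6.84 to 25.6 in GLU42 mice (median 12.2). The bulk of both groups overlapped, with a log2 difference of 0.36 ± 0.20 (adjusted p = 0.419 by edgeR). Its log2 ratio to Cd3e was 0.94 ± 0.28 in GAL42 mice and 0.89 ± 0.34 in GLU42 mice. That difference, 0.05, had a 95% interval from -0.22 to 0.32 (permutation test, adjusted p = 0.717).

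Ccr9, the receptor for CCL25, averaged 4.27 ± 1.36 CPM in GAL42 mice and 3.53 ± 0.853 in GLU42 mice (log2 difference 0.27 ± 0.17). Cd69, a marker of activation and tissue residence, averaged 0.914 ± 0.429 CPM in GAL42 mice and 0.706 ± 0.292 in GLU42 mice (0.37 ± 0.26). Neither passed the test.

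A separate list of 16 genes held mainly signals on the epithelial side, but also Madcam1 of gut vessels and the receptor genes Il15ra and Tnfrsf14. Of these 16 genes 14 were tested, 9 with estimates above 0 and 5 below. By edgeR 0 were called (2 at an unadjusted p under 0.05, both higher). Ccl25 itself averaged 643 ± 75.1 CPM in GAL42 mice and 575 ± 34.6 in GLU42 mice (log2 difference 0.16 ± 0.06, adjusted p = 0.226 by edgeR). Il18, an epithelial cytokine, averaged 118 ± 23.2 CPM in GAL42 mice and 94.5 ± 20.0 in GLU42 mice (0.32 ± 0.12, adjusted p = 0.223 by edgeR). Il15, a survival factor for intraepithelial lymphocytes, differed by -0.11 ± 0.08, and Btnl1 and Btnl6, butyrophilin-like proteins that shape gut gamma delta T cells in mice, by 0.02 ± 0.06 and 0.01 ± 0.07.

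The leukocyte-wide genes are made by T cells and by other blood cells, and their estimates ranged from 0.07 to 0.53. Ptprc, which encodes CD45 and marks all leukocytes, averaged 23.7 ± 4.40 CPM in GAL42 mice and 22.5 ± 5.62 in GLU42 mice (log2 difference 0.07 ± 0.12, adjusted p = 0.82 by edgeR). Il2rb, the receptor chain shared by interleukins 2 and 15, averaged 13.2 ± 2.76 CPM in GAL42 mice and 11.5 ± 3.11 in GLU42 mice (0.20 ± 0.14). Both mean differences were smaller than the SD within either group.

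Coro1a, an actin regulator of leukocytes, had the smallest p of the 34. It ran from 19.0 to 42.4 CPM in GAL42 mice (median 30.4), against 17.7 to 28.2 in GLU42 mice (median 21.2). The GAL42 mice were spread widely, with 7 of 12 above the highest GLU42 mouse. The log2 difference was 0.53 ± 0.12 (p = 0.000154, adjusted p = 0.135 by edgeR). DESeq2 gave it an adjusted p of 0.0116, and edgeR without GAL42 replicate 7 gave 0.0298. With surrogate variables its log2 difference was 0.17 (adjusted p = 0.73 by edgeR), and over all alternatives its adjusted p ranged from 0.0116 to 0.736. Rac2, a GTPase that acts on actin in blood cells, averaged 35.6 ± 7.77 CPM in GAL42 mice and 28.8 ± 4.35 in GLU42 mice (0.31 ± 0.11, p = 0.007, adjusted p = 0.204 by edgeR).

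The members varied widely between mice. The biological coefficient of variation, edgeR's estimate of the spread between mice beyond counting error, had a median of 32.0% over the members. Over all tested genes it was 15.6%, and over the 10273 genes in the members' range of mean level it was 16.7%. This spread was largely shared. With the diet means removed, 368 of 561 pairs of members had a correlation over 0.5 across the 23 mice (median r = 0.612), and of 33 pairs below 0, 30 included Cd4.

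The shared spread came with particular mice. GAL42 replicate 8 was the highest of its group for 20 of 34 members and GAL42 replicate 2 for 9. GLU42 replicate 2 was the highest of its group for 26, and GLU42 replicate 11 the lowest for 24. Summed over the members, GAL42 replicates 8 and 2 had 831 and 773 CPM, while GLU42 replicate 2 had 636 and GLU42 replicate 11 had 174. The epithelial marker sums of these 4 mice, from 14592 to 15807 CPM, lay inside the range of all mice, 12260 to 16847 CPM.

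**Figure D3:**
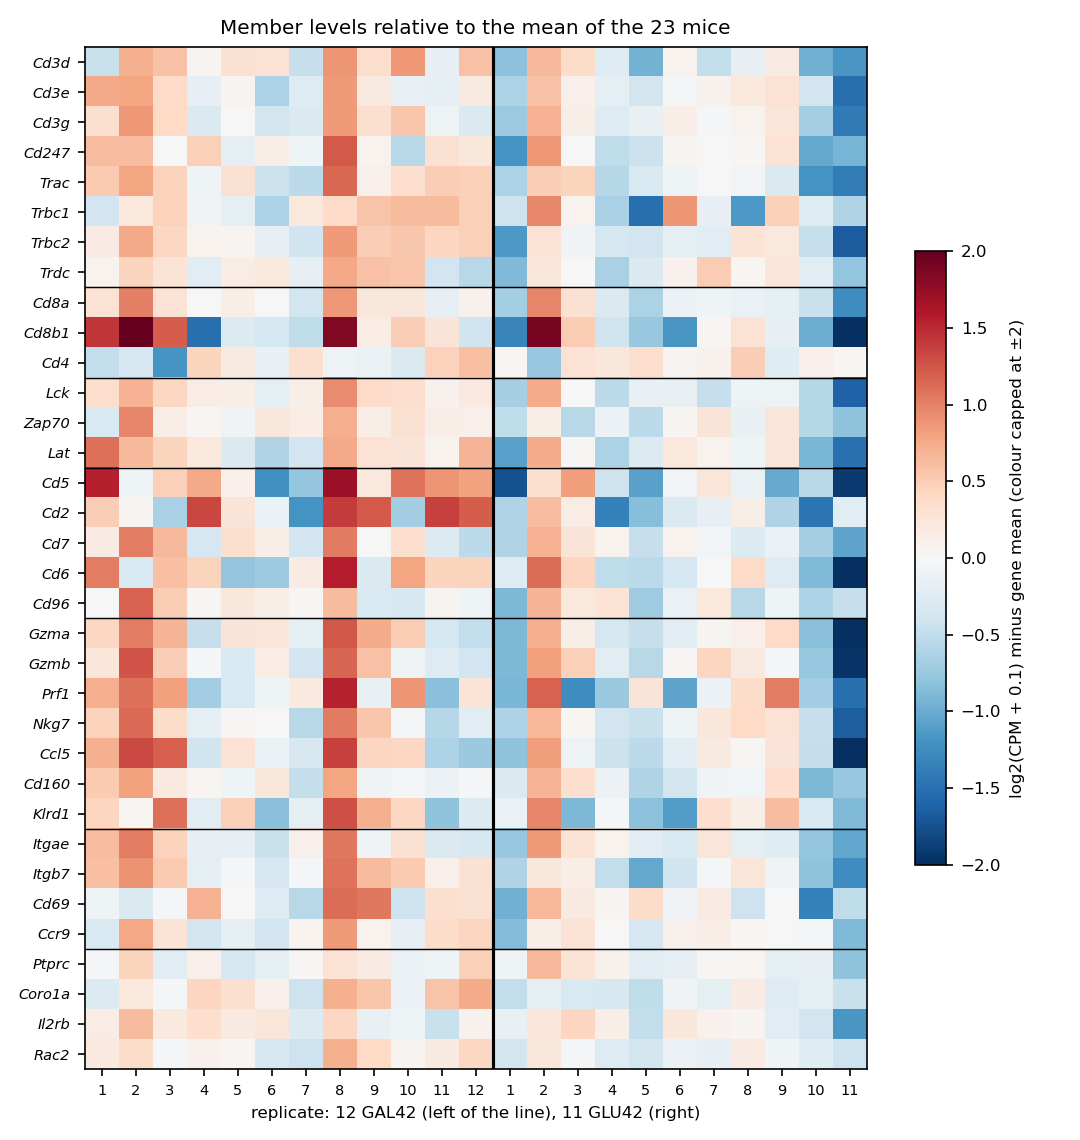
Each cell is log2(CPM + 0.1) of a member (row, ordered by function with lines between groups) in a mouse (column, 12 GAL42 left and 11 GLU42 right) minus the gene's mean over the 23 mice, with colours capped at 2. GAL42 replicates 2 and 8 and GLU42 replicate 2 are red, and GLU42 replicate 11 blue, down most rows, while the row of Cd4 follows another order.

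Cd8a, Gzma and Itgae followed Cd3e from mouse to mouse. Cd8a correlated with Cd3e at Pearson's r = 0.871 (Spearman's rho = 0.788), Gzma at r = 0.863 (rho = 0.759) and Itgae at r = 0.844 (rho = 0.732), each over 23 mice. The permutation p of each r was 1e-05, the smallest that 100000 resamples can give, and 2e-05 after adjustment over 7 relations. Adjusted p-values of rho were 0.00014 for Cd8a and 0.00021 for Gzma and Itgae. Without GLU42 replicate 11 and GAL42 replicate 8, the mice farthest from the median of Cd3e, r was 0.785 for Cd8a, 0.722 for Gzma and 0.785 for Itgae.

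The relations also held within each diet. Cd8a had r = 0.819 within GAL42 and 0.893 within GLU42, Gzma 0.641 within GAL42 and 0.993 within GLU42, and Itgae 0.842 within GAL42 and 0.815 within GLU42. The largest of these permutation p-values was 0.026, for Gzma within GAL42. Other members of their groups were not tested against Cd3e. With the diet means removed, their r with Cd3e went as high as 0.908 for Nkg7 and as low as 0.62 for Klrd1 and 0.415 for Cd69, Cd4 aside. Trdc correlated with Cd3e at r = 0.653 (rho = 0.625, permutation test, adjusted p = 0.000892 and 0.0031), with r = 0.394 within GAL42 (permutation p = 0.206) and 0.794 within GLU42 (permutation p = 0.00147). The difference between the diets was not tested. Without the same 2 mice r for Trdc was 0.494.

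Epcam, an epithelial gene, did not pass against Cd3e, at r = -0.14 (rho = -0.249), with permutation p-values adjusted to 0.614 for r and 0.294 for rho. Cd4 had r = -0.378 with Cd3e and did not pass (rho = -0.375, permutation test, adjusted p = 0.109 for both), nor within GAL42 (permutation p = 0.18) or within GLU42 (permutation p = 0.322). Without the same 2 mice it was -0.484 (adjusted permutation p = 0.0362).

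**Figure D4:**
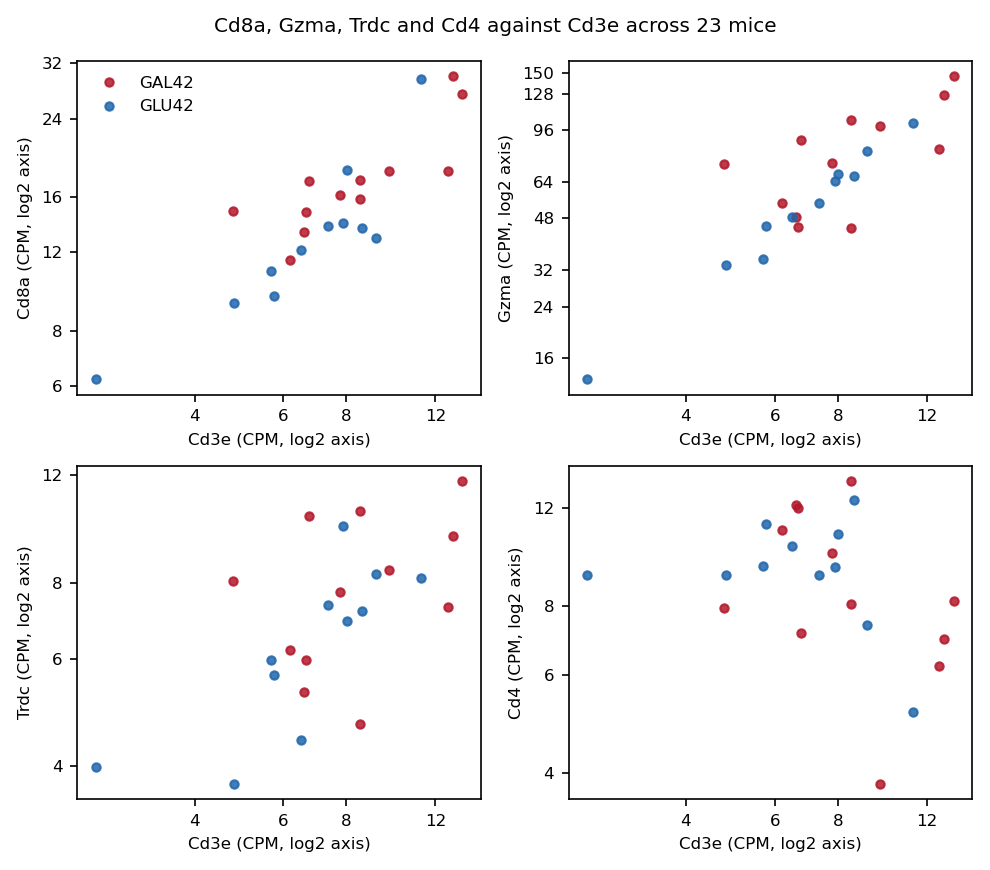
Level of Cd8a, Gzma, Trdc and Cd4 (vertical, CPM on a log2 axis) against Cd3e (horizontal, CPM on a log2 axis), each dot 1 mouse of GAL42 (n = 12) or GLU42 (n = 11). Cd8a and Gzma climb with Cd3e (r = 0.871 and 0.863), Trdc has r = 0.653, and Cd4 does not climb with Cd3e (r = -0.378).

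Cd4 followed markers of macrophages and dendritic cells. Beside its role on T cells, CD4 is also carried by some macrophages and dendritic cells in mice, as background. Against the summed CPM of 12 such markers, Cd4 had r = 0.841 and rho = 0.854 over 23 mice (permutation p = 1e-05 for both, the smallest possible, and 0.00068 after adjustment over 68 relations, which were chosen after the data had been seen). The relation was r = 0.842 without the 2 mice farthest from the median of the sum, 0.798 within GAL42 and 0.936 within GLU42. No other member passed against this sum, for example Cd3e at r = -0.208 and Cd8a at r = -0.333, though the difference between these correlations was not tested.

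The 12 macrophage and dendritic cell markers were all tested, 4 with estimates above 0 and 8 below, and 0 were called by edgeR (0 higher and 2 lower at an unadjusted p under 0.05). They summed to 197 ± 42.99 CPM in GAL42 mice (range 145 to 267) and 202 ± 31.8 in GLU42 mice (range 134 to 267). Adgre1, which encodes F4/80, averaged 4.83 ± 1.31 CPM in GAL42 mice and 5.10 ± 0.982 in GLU42 mice. Their part in the level of Cd4 was not tested.

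Coro1a and Cd2 varied with B cell markers. Of 12 such markers 6 were tested, all 6 with estimates above 0 (median log2 difference 0.94), and 0 were called by edgeR (3 at an unadjusted p under 0.05, all higher). They summed to 32.2 ± 31.3 CPM in GAL42 mice (range 7.11 to 94.9) and 16.6 ± 10.4 in GLU42 mice (range 7.41 to 40.9), with GAL42 replicates 4, 9, 11 and 12 above every GLU42 mouse. Ms4a1, which encodes CD20 and did not pass the count filter, averaged 2.28 ± 2.69 CPM in GAL42 mice and 0.789 ± 1.12 in GLU42 mice.

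Against this sum Coro1a had r = 0.723 and Cd2 r = 0.692, both with a permutation p adjusted to 0.0068. Ranks gave weaker relations, rho = 0.555 for Coro1a and 0.538 for Cd2, with permutation p-values adjusted to 0.197. Without GAL42 replicates 12 and 9, r was 0.599 for both. Coro1a had r = 0.851 within GAL42 and 0.526 within GLU42, and Cd2 had 0.829 within GAL42 and 0.284 within GLU42.

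With the B cell sum as a covariate, added after the data had been seen, the log2 difference was 0.40 for Coro1a, 0.66 for Cd2, 1.03 for Cd5 and 0.71 for Itgb7. The member median was then 0.41, and 0 members were called by edgeR. At an unadjusted p under 0.05 by edgeR, 17 members lay higher, beside 1100 of all 13405 genes. The B cell sum had no relation to Cd3e (r = -0.01) or Cd8a (r = -0.02).

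**Figure D5:**
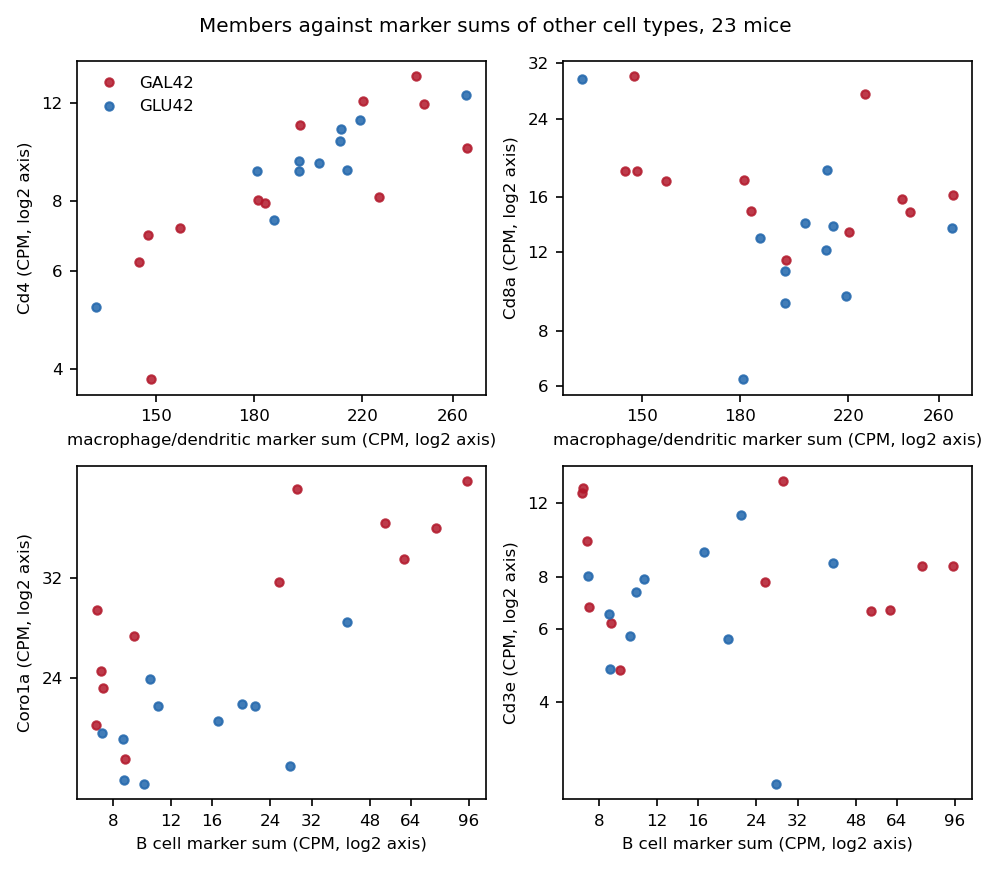
Upper panels show Cd4 and Cd8a against the summed macrophage and dendritic cell markers, lower panels Coro1a and Cd3e against the summed B cell markers (all CPM on log2 axes, each dot 1 mouse of GAL42, n = 12, or GLU42, n = 11). Cd4 climbs with the macrophage and dendritic cell sum (r = 0.841) and Coro1a with the B cell sum (r = 0.723), while Cd8a and Cd3e do not (r = -0.333 and -0.01).

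Markers of natural killer and innate lymphoid cells were scarce. Of 10 such genes 3 were tested, and 0 were called (0 at an unadjusted p under 0.05 by edgeR). Ncr1, which encodes NKp46, had 26 counts in all 23 libraries and Klrb1c, which encodes NK1.1, had 93. Plasma cell markers summed to 1275 ± 507 CPM in GAL42 mice and 1176 ± 311 in GLU42 mice.

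Other genes of the T cell pathway, from a list of 54 that holds no member, were described beside the members. Of these 40 were tested, 35 with estimates above 0 and 5 below, with a median log2 difference of 0.25, and 0 were called by edgeR (8 higher and 1 lower at an unadjusted p under 0.05). Jak3, the kinase of the common cytokine receptor gamma chain, averaged 11.7 ± 2.02 CPM in GAL42 mice and 9.05 ± 1.69 in GLU42 mice (0.37 ± 0.11, adjusted p = 0.148 by edgeR). Ptprcap, which associates with CD45, averaged 7.25 ± 2.44 CPM in GAL42 mice and 4.58 ± 1.82 in GLU42 mice (0.66 ± 0.21, adjusted p = 0.169 by edgeR). Itga1, a collagen-binding integrin chain, averaged 15.4 ± 2.52 CPM in GAL42 mice and 18.6 ± 2.69 in GLU42 mice (-0.27 ± 0.09, adjusted p = 0.192 by edgeR).

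Sh2d2a, a T cell adaptor, differed by 0.46 ± 0.20 in the same list. The gamma chain constant regions Tcrg-C1, Tcrg-C2 and Tcrg-C4 differed by 0.12 ± 0.18, 0.51 ± 0.22 and 0.41 ± 0.21. Their sequences were not compared, so whether any of them share reads was not tested. Foxp3, the factor of regulatory T cells, did not pass the count filter, at 0.325 ± 0.176 CPM in GAL42 mice and 0.234 ± 0.135 in GLU42 mice.

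Promoter windows were read for members, and whether they bear on the spread shared between mice was not tested. RefSeq on GRCm38.p6 gave windows of 250 bases before to 50 after the start for 19 of 34 members. The ETS core (AGGAAG, or CTTCCT on the other strand) lay in the windows of 14 of 19 members, and in 35.4% of all 32851 windows. The RUNX core (TGTGGT, or ACCACA on the other strand) lay in those of 9 of 19 members, and in 16.8% of all windows. Counted by window, which is the like comparison, 18 of 25 member windows held the ETS core and 10 of 25 the RUNX core. ETS and RUNX factors are known regulators of T cell genes, and a match of letters is a description only. A receptor chain, a cytotoxic and a homing gene are shown as 1 example of each group. Cd3e lies at chr9:45009562-45009861, Gzma at chr13:113100932-113101231 and Itgb7 at chr15:102231886-102232185, all on the minus strand, with matches in capitals (ETS in Cd3e and Itgb7, RUNX in Gzma).
Cd3e: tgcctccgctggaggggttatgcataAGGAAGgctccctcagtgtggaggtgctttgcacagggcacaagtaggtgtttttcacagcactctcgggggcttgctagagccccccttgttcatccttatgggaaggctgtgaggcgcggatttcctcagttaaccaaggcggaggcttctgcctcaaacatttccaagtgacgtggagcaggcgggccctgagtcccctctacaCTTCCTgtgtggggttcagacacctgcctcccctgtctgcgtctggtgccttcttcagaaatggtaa
Gzma: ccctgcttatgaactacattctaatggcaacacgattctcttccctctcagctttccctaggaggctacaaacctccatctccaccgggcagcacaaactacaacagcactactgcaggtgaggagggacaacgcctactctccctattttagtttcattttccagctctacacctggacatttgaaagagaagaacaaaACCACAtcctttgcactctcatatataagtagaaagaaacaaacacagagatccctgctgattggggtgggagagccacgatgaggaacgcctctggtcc
Itgb7: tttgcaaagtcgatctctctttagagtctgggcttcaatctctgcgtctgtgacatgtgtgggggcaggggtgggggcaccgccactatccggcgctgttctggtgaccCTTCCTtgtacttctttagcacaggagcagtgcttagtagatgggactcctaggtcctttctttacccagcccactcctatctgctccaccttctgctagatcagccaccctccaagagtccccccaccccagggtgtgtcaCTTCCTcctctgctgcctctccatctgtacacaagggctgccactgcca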

How the data were processed

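The authors deposited raw read counts per gene for each mouse. Per the submitters' processing notes, STAR, HTSeq and GRCm39 were used. Versions, annotation release and strand setting were not given in the sources used here. Of the counts, 13.5% lay in 5 rows that name no gene and were left out. Without a known strand setting, reads of overlapping genes cannot be told apart. Replicates are mice numbered in order of deposit. In 121 pairs within a diet, the chi-square per degree of freedom was at least 12.9, so no library repeated another.

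Symbols came from the supplied name table by identifier, where the gamma constant regions are named Tcrg-C. Lengths and sequences came from GRCm38 tables, matched by identifier or symbol. The fit used edgeR 4.0.16 in R 4.3.3 (filterByExpr, TMM, diet only, 23 libraries, Benjamini-Hochberg, threshold 0.05). It was also run on simulated counts, drawn for each gene independently. Spread shared between genes was not simulated, so that run cannot show how the fit performs on these data. CPM are given as mean ± SD and log2 differences with SE. Ratios and relations used log2 CPM with a prior count of 2, segment sums log2(CPM + 0.1), with two-sided permutation tests of 100000 resamples (SciPy 1.17.1). All members are named, with fuller values for those of smallest p in each function group. From other lists only some genes are named, and these are not always those of smallest p. Alternatives were other scalings and filters, DESeq2 1.42.0, limma-voom (limma 3.58.1), surrogate variables (sva 3.50.0), the length slope, each library left out, and GAL42 replicates 7 and 12 left out. Members and lists were chosen with earlier results of these data known. Of the 7 relations to Cd3e that were tested and adjusted together, 1 is not reported here.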

Additional observations from a re-analysis of the deposited data

How the results depend on the processing

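The count of genes called moved from 0 to 132 with DESeq2, 167 with limma-voom and quality weights, 321 without GAL42 replicates 7 and 12, and 0 to 219 with each library left out. Members called were then 1 with DESeq2 (Coro1a), 3 with quality weights (Trbc2, Itgb7 and Coro1a), 2 without GAL42 replicates 7 and 12 (Itgb7 and Coro1a), and 0 to 2 with each library left out. The cause was not tested. Other scalings, other filters, limma-voom without weights, the length slope and the B cell sum gave 0 calls, and the stricter filter kept 31 members. DESeq2 gave an adjusted p to 7168 genes, and many members were not among them.

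With 6 surrogate variables 25 estimates changed sign, to -0.0145 for Cd3d, -0.31 for Cd3e, -0.28 for Cd3g, -0.12 for Cd247, -0.0011 for Trac, -0.048 for Trbc1, -0.0023 for Trbc2, -0.21 for Trdc, -0.15 for Cd8a, -0.41 for Cd8b1, 0.0714 for Cd4, -0.0845 for Lat, -0.21 for Cd7, -0.20 for Gzma, -0.38 for Gzmb, -0.44 for Nkg7, -0.29 for Ccl5, -0.17 for Cd160, -0.29 for Klrd1, -0.0544 for Itgae, -0.11 for Ccr9, -0.22 for Cd69, -0.0734 for Ptprc, -0.0573 for Rac2 and -0.16 for Il2rb. Every adjusted p there was at least 0.574, and the cause was not tested.

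The correlation of Cd3e with Cd4 was -0.484 without the 2 farthest mice. With each library left out, the difference in the ratio of Cd4 to Cd8a ranged from -0.765 to -0.454, and that of Itgae to Cd3e from -0.0043 to 0.10. The cause was not tested. No paired analysis was possible because replicates were numbered by deposit order, which links no mouse to another. Depth limits Cd2, Cd5, Cd6, Cd8b1, Cd69 and Prf1, which had 3 or 4 counts in their lowest library, and the variable segments.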
